A study of Serinus canaria and Ploceus bicolor and Uraeginthus cyanocephalus with 155 samples.

Results

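The entopallium of 6 male and 6 female canaries (Serinus canaria) that carried testosterone implants was compared between the sexes, with differences given as males minus females. These 12 arrays, each of a single bird, were taken from the 155 arrays of HVC, entopallium and cerebellum of canaries, blue-capped cordon-bleus and forest weavers by the tissue, sex, treatment and song behaviour given for each sample. All 12 birds were adults, kept on short days out of breeding condition and recorded as singing. Both sexes had been given a subcutaneous tube filled with testosterone, although the protocol field of the same samples states that no treatment was given. The comparison asks how far the sexes differed in a region outside the song system once both had the same hormone and both sang. Birds that were set beside them in the entopallium were non-breeding non-singing males (6) and females (5) on short days without an implant, breeding singing males and breeding non-singing females on long days (6 each), and 6 non-breeding females that sang without an implant. HVC had also been sampled in implanted canaries (6 of each sex, 11 of them birds with both tissues), and the entopallium in breeding singing cordon-bleus and forest weavers (6 of each sex and species). Implanted canaries sang and the non-breeding non-singing birds set beside them did not, so that effects of the implant and of song cannot be told apart there.

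The entopallium is a visual area of the avian forebrain and lies outside the song control system, of which the premotor nucleus HVC is a part. Testosterone acts through androgen receptors and, after aromatisation, through oestrogen receptors, and it can induce singing in adult female canaries. Male birds carry a pair of Z chromosomes and females a Z and a W, and in birds the compensation of Z gene dose is known to be incomplete.

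A transcript level is the log2 value that the authors deposited for each of 26061 transcripts of a custom exon array. None of the identifiers could be paired with a gene name (0 matches), so that genes on the sex chromosomes, receptors and cell types could not be looked up, and the labelled tissue could not be checked against known markers. Array medians were 7.33 to 7.37 in males and 7.33 to 7.38 in females and did not differ beyond their spread (two-sided exact permutation test, p = 0.779, adjusted p = 0.779 over 3 array measures, smallest possible p = 0.00216, n = 6 each). Correlations between arrays were 0.992 to 0.994 among males, 0.989 to 0.993 among females and 0.977 to 0.987 between the sexes. Each of the 12 arrays had its most correlated canary entopallium array within its own group. The sexes on the labels could be checked with 47 transcripts that had a male bias in the entopallium in each of the 4 other comparisons of the sexes. Their mean level was 8.25 to 8.36 in implanted males and 7.59 to 7.74 in implanted females, with no overlap.

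The tissue was checked with transcripts that differed between HVC and entopallium in the 59 arrays of canaries without an implant, which the sex difference did not use. There, 1517 transcripts were higher in HVC (5.82% of all) and 1584 were lower (6.08%). The 63 that were higher by a log2 difference of at least 2 had a median level of 6.17, 6.22, 6.23, 6.48, 6.52 and 6.61 in the entopallium of the 6 implanted males. In the entopallium of the 6 implanted females their median level was 7.06, 7.06, 7.11, 7.13, 7.77 and 8.06. All females were therefore above all males, and females 2 and 6 stood apart from the other females. Females are numbered by the replicate number of their entopallium array, which is not the bird number in the title. HVC of implanted birds had 8.95 to 9.45 in males and 9.35 to 9.51 in females, and the entopallium of the other 5 canary groups 6.30 to 7.07. For the 59 transcripts lower in HVC by at least 2, entopallium medians were 9.18 to 9.41 in implanted males and 8.75 to 9.42 in implanted females. The lowest value was that of female 2. For these transcripts, HVC of implanted birds had 6.94 to 7.80 in males and 6.75 to 7.09 in females. HVC and entopallium had been dissected from brain sections with separate forceps, and some birds gave a single tissue. Cerebellum was not part of this contrast, so that transcripts higher in HVC need not be particular to HVC. The part of this tissue profile in the sex difference was not tested, and the main counts below are also given without females 2 and 6 and for the transcripts that were not called between the tissues. More cells of a type and more RNA per cell cannot be told apart in these samples.

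**Figure D1:**
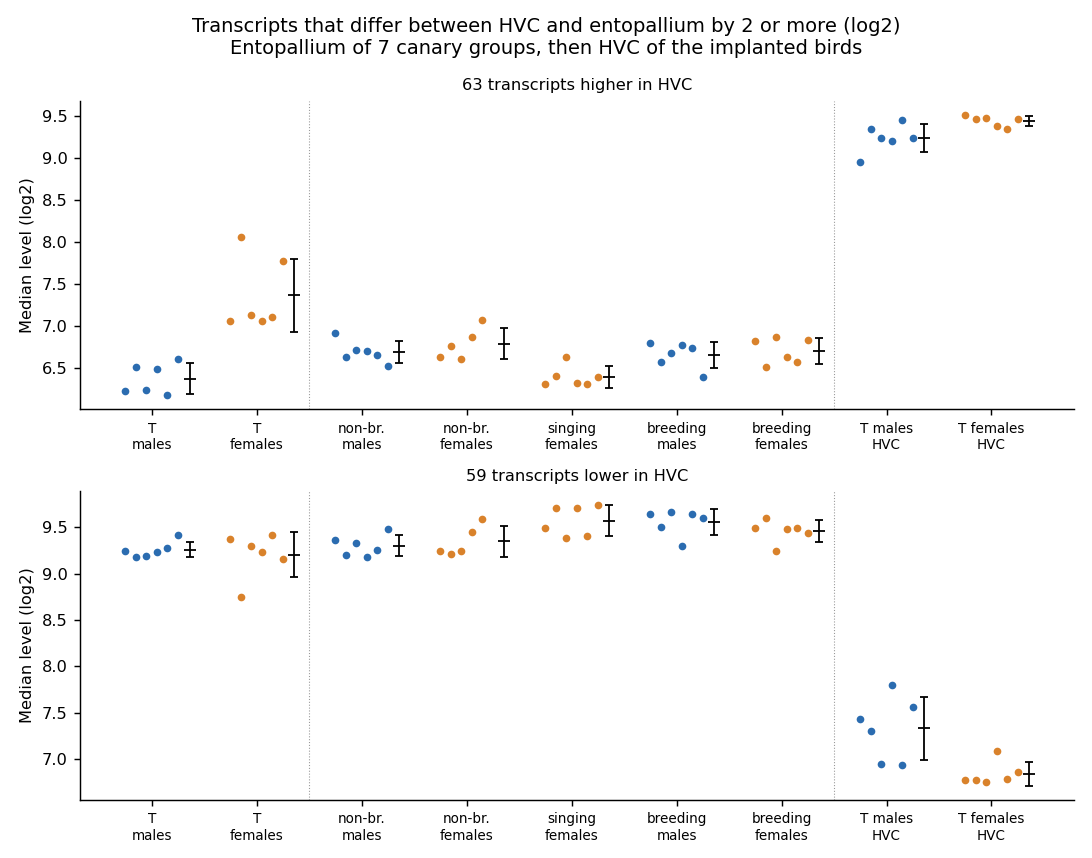
Median log2 level of the 63 transcripts higher in HVC (top) and the 59 lower in HVC (bottom), 1 point a bird, with males in blue, females in orange and the mean ± SD beside them. T marks implanted birds, non-br. the non-breeding non-singing birds, and the last 2 columns are HVC. Implanted females lie between 7.06 and 8.06 in the top panel, against 6.17 to 6.61 in implanted males.

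Sex differences in the entopallium of implanted canaries were extensive and went in both directions. Male-biased transcripts numbered 760 (2.92% of all) and female-biased ones 878 (3.37%), at an adjusted p below 0.05 and a log2 difference of at least 0.5 (limma, Benjamini-Hochberg over all transcripts). Without the limit on size, 10135 transcripts passed the adjusted p, and the median difference over all transcripts was 0.01. Most of the called differences were small. A difference under 1 was found for 712 of the male-biased and 782 of the female-biased transcripts, and the median size was 0.62 in the male-biased and 0.63 in the female-biased transcripts. Differences of 1 or more were found for 48 male-biased and 96 female-biased transcripts, and of 2 or more for 2 and 5. The levels of the 6 males and the 6 females did not overlap for 596 of the male-biased transcripts (78.4%) and 682 of the female-biased transcripts (77.7%). Over all transcripts, 10.6% lay without overlap in the male-biased and 9.12% in the female-biased direction.

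Both directions were found at all levels of expression. Among the 6515 transcripts of the highest mean level, 4.1% were male-biased and 4.37% female-biased. Among the 6516 of the lowest level these shares were 2.42% and 2.27%. The spread among birds was larger in females. The SD among the 6 birds was larger in females for 59.3% of all transcripts, for 64.7% of the male-biased and for 76.4% of the female-biased transcripts. The female-biased transcripts thus had a median SD of 0.16 in males and 0.22 in females, and the male-biased transcripts 0.13 in males and 0.18 in females. Without females 2 and 6 the SD was larger in females for 54.2% of all, 53.0% of the male-biased and 59.0% of the female-biased transcripts. Fewer females than males remained for these SDs, so that these shares are not directly comparable with those of all birds. Females 3 and 5 were the closest to the males, with a mean correlation of 0.986 for both, against 0.979 to 0.982 for the other females.

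**Figure D2:**
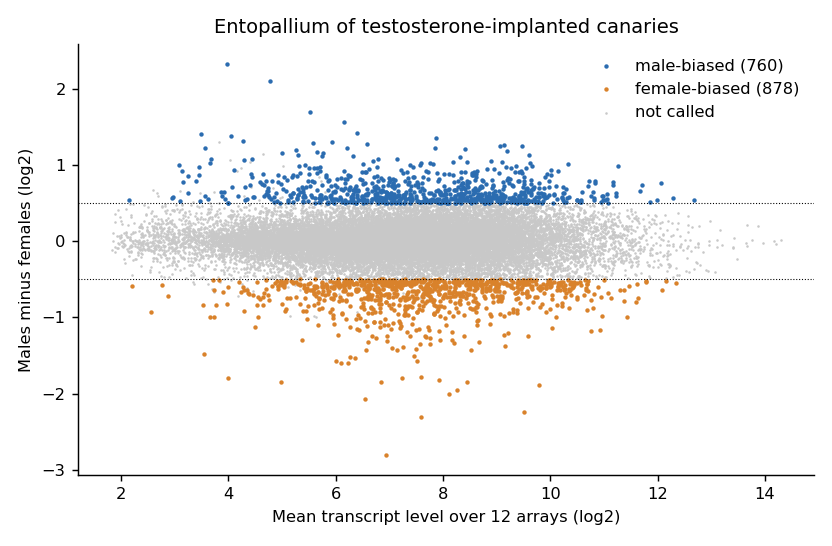
Difference of males minus females (log2) against the mean level over the 12 arrays (log2) for each transcript. The 760 male-biased transcripts are in blue, the 878 female-biased in orange, and dotted lines mark 0.5 and -0.5. Differences below -2 reach further than those above 2, and called transcripts occur along the whole range of levels.

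The largest difference was found for the female-biased transcript ENSTGUT00000001986. Its lowest, median and highest levels were 5.10, 5.49 and 6.08 in implanted males and 7.70, 8.21 and 9.06 in implanted females. No male reached the level of any female. The difference was -2.81 ± 0.22 (SE, limma adjusted p = 2.27e-06, n = 6 each). Group means in the entopallium of the other canaries were 5.82 to 7.35. The mean of implanted males was below and that of implanted females above all of them. Single birds without an implant reached 8.44, within the range of the implanted females. The sexes differed by 0.08 in non-breeding non-singing birds (limma adjusted p = 0.936) and by -0.35 in breeding birds (limma adjusted p = 0.450). In HVC of the implanted birds, levels were higher in both sexes, with 8.34 ± 0.38 in males and 9.21 ± 0.28 in females (SD, n = 6 each). The sex difference in HVC was -0.87 and was also called female-biased (limma adjusted p = 0.00932), although single birds overlapped. In canaries without an implant this transcript was 2.15 higher in HVC than in the entopallium. Without females 2 and 6 its sex difference was -2.50 (limma adjusted p = 8.29e-06).

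The second female-biased transcript, XM_002197595, had levels of 5.77, 6.48 and 6.96 in implanted males (lowest, median and highest) and 8.03, 8.50 and 9.66 in implanted females. The sexes did not overlap, and the highest females were females 2 and 6 (9.66 and 9.50). The difference was -2.31 ± 0.29 (SE, limma adjusted p = 6.39e-05, n = 6 each), and -1.90 without these females (limma adjusted p = 0.000146). It was 2.49 higher in HVC than in the entopallium of canaries without an implant, and it was at 9.13 ± 0.47 in males and 9.42 ± 0.09 in females in HVC of the implanted birds. Their sex difference in HVC did not pass the test (-0.29, limma adjusted p = 0.237, n = 6 each). In the cerebellum of canaries without an implant, group means of XM_002197595 were 9.59 to 9.84.

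The leading male-biased transcripts were, like the female-biased ones, chosen among called transcripts without overlap of the sexes. The lack of overlap therefore follows from the choice. Among these leading transcripts of both directions, XM_002194733 had the largest SD in each implanted sex (0.79 in males and 0.77 in females). XM_002198612 differed by 2.10 (limma adjusted p = 0.0133), but its sexes overlapped. XM_002194733, which ranked at 4.18% of all transcripts by mean level, had 4.52, 4.86 and 6.62 in implanted males (lowest, median and highest) and 1.72, 2.93 and 3.995 in implanted females. Males lay above females without overlap, with a difference of 2.33 ± 0.39 (SE, limma adjusted p = 0.000502, n = 6 each), and of 2.23 without females 2 and 6 (limma adjusted p = 0.00387). Canaries without an implant spread across most of this range, with 2.30 to 6.23 in non-breeding non-singing females alone. The implanted females were the group with the lowest mean, at 2.80 ± 0.77 against 3.96 to 5.05 in the 5 groups without an implant (SD, n = 6). In HVC, the order of the sexes was the opposite, with 3.98 ± 1.23 in males and 4.81 ± 0.55 in females, a difference that did not pass the test (-0.83, limma adjusted p = 0.225, n = 6 each).

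XM_002194060 had levels of 5.89, 6.34 and 6.85 in implanted males and 3.48, 4.73 and 5.56 in implanted females. Again there was no overlap, and the difference was 1.70 ± 0.28 (SE, limma adjusted p = 0.00039, n = 6 each), and 1.73 without females 2 and 6 (limma adjusted p = 0.00268). Differences in the other 4 comparisons of the entopallium were -0.67 to 0.03, and the limma adjusted p was 0.461 or more in each. This transcript differed by 0.40 between HVC and entopallium in canaries without an implant, which was not called (limma adjusted p = 0.0866). Both leading female-biased transcripts were thus higher in HVC, whereas neither of the leading male-biased ones was called between the tissues.

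**Figure D3:**
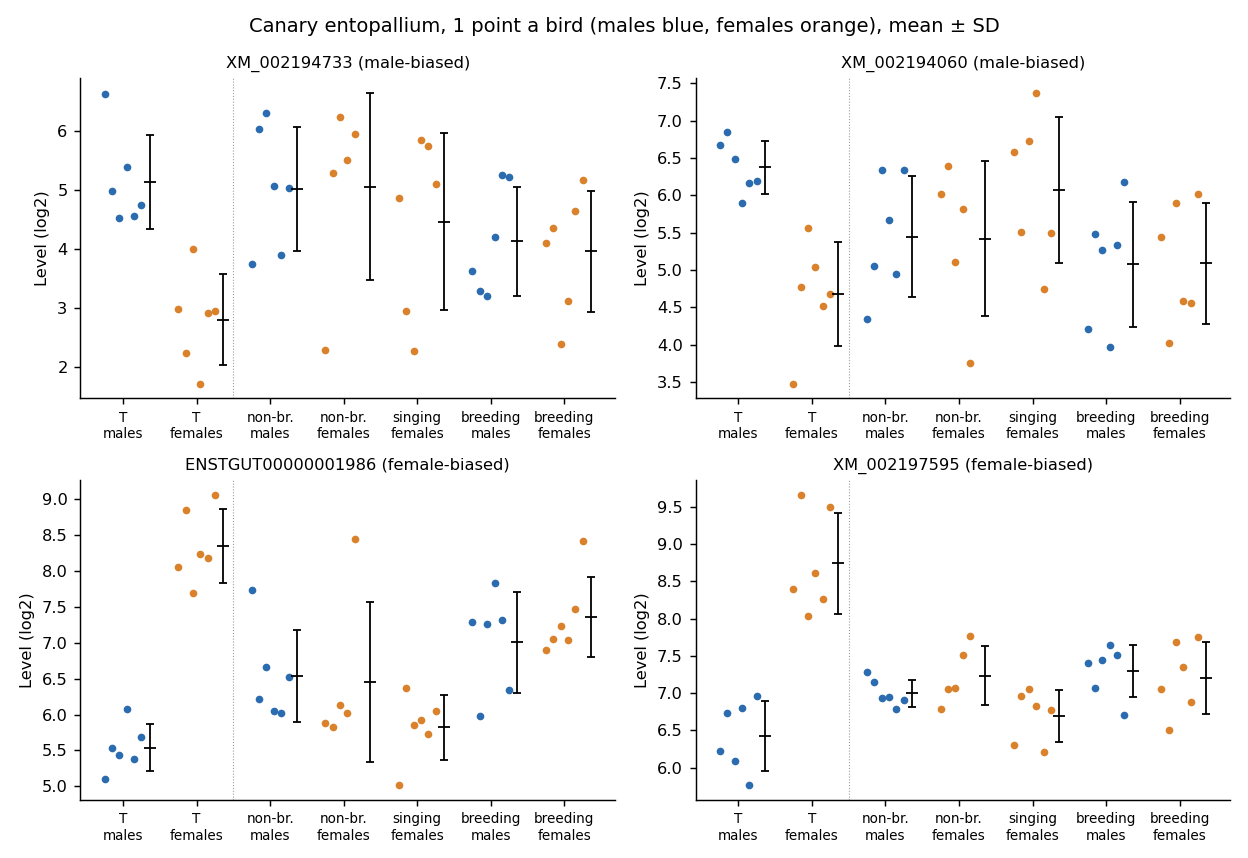
Log2 level of the 2 male-biased (top) and the 2 female-biased transcripts (bottom) with the largest differences among those in which the implanted sexes do not overlap, 1 point a bird, in the entopallium of 7 canary groups, with the mean ± SD beside each group. T marks implanted birds, and males are blue and females orange. Implanted birds are left of the dotted line, and implanted females in the panel of ENSTGUT00000001986 reach 9.06, against 6.08 in implanted males.

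Among all called transcripts, the relation to HVC differed between the directions. Of the 878 female-biased transcripts, 272 (31.0%) were higher in HVC than in the entopallium of canaries without an implant and 71 (8.09%) were lower, against 5.82% and 6.08% of all transcripts. Of the 760 male-biased transcripts, 27 (3.55%) were higher in HVC and 193 (25.4%) were lower. Large differences showed it most in females, since 65 of the 96 female-biased transcripts with a difference of 1 or more were higher in HVC (67.7%). Of the 48 male-biased ones of that size, 17 (35.4%) were lower in HVC and 5 (10.4%) higher. Of the 63 transcripts higher in HVC by at least 2, 40 were female-biased and 0 were male-biased. Of the 59 lower by at least 2, 1 was female-biased and 15 were male-biased. Over all transcripts, 3.37% were female-biased and 2.92% male-biased. When females 2 and 6 were left out, male bias was called for 623 transcripts and female bias for 722, of which 157 (21.7%) were higher in HVC. Another 74 of these 722 (10.2%) were lower. Of the 623, 37 (5.94%) were higher in HVC, close to the 5.82% of all transcripts, and 123 (19.7%) were lower. The median of HVC minus entopallium over the female-biased transcripts was then -0.05, against 0.06 with all 12 birds. Of the transcripts called with all 12 birds, 573 male-biased and 663 female-biased ones were called again.

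A sex difference was also present among the 22960 transcripts that were not called between the tissues. Male bias was called for 540 of them (2.35%) and female bias for 535 (2.33%), so that the directions were about equally frequent. A difference of 1 or more was found for 26 of these male-biased and 25 of these female-biased transcripts. Among the transcripts not called between the tissues, the larger number of strongly female-biased transcripts was not seen. Smaller differences between the tissues can remain among them, and the part of the tissue profile in the sex difference was not tested.

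The sex difference of implanted birds was then set beside those of the other birds, which are different individuals. In the entopallium, male bias was called for 123 transcripts (0.472%) and female bias for 21 (0.0806%) in non-breeding non-singing canaries, and 598 (2.29%) and 249 (0.955%) in breeding canaries. Cordon-bleus had 263 male-biased (1.01%) and 5 female-biased transcripts (0.0192%), and forest weavers had 228 (0.875%) and 14 (0.0537%). Implanted canaries therefore had the largest number of called transcripts in both directions among these 5 comparisons. That female-biased transcripts outnumbered male-biased ones there depended on the limit on size, since on the adjusted p alone 5369 were male-biased and 4766 female-biased. Residual SDs also differed, with a median of 0.108 in implanted canaries, 0.126 in non-breeding non-singing canaries, 0.114 in breeding canaries, 0.163 in cordon-bleus and 0.134 in forest weavers, and the part of this spread in the counts was not tested.

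Transcripts called in the same direction in implanted and in other birds were mostly male-biased, as were most of the calls in those other birds. Breeding canaries had 204 of the 760 male-biased transcripts in common with implanted canaries (26.8% of these and 34.1% of those of breeding canaries), and non-breeding non-singing canaries had 56 (7.37% and 45.5%). In cordon-bleus 104 were shared (13.7% and 39.5%), and in forest weavers 95 (12.5% and 41.7%). The 47 transcripts with male bias in each of the 4 other comparisons included 33 that were called in implanted canaries, and their differences ranged from 0.13 to 1.36. In contrast, 33 of the 878 female-biased transcripts were shared with breeding canaries (3.76% and 13.3%), 8 with non-breeding non-singing canaries, 2 with cordon-bleus and 4 with forest weavers. Opposite calls also occurred, since 25 of the 878 were male-biased in breeding canaries, 5 in non-breeding non-singing canaries, 1 in cordon-bleus and 4 in forest weavers. Over all transcripts, male bias was called for 2.29%, 0.472%, 1.01% and 0.875% in the same order. Whether the opposite calls were more frequent than these shares was not tested. Of the 760 male-biased transcripts, 7 were female-biased in breeding canaries, 3 in non-breeding non-singing canaries and 0 in the other species. In none of the 4 other comparisons called were 530 of the male-biased transcripts (69.7%) and 837 of the female-biased transcripts (95.3%). Female-biased calls were few there, at 0.0192% to 0.955% of all transcripts. The 95.3% alone therefore does not show a bias limited to implanted birds. In those comparisons, 59.5% to 69.7% of the 878 had the female-biased direction, against 41% to 52.2% of all transcripts. In breeding canaries the male-biased direction was found for 80.1% of the 760, against 47.8% of all. For non-breeding non-singing canaries these shares were 63.2% and 59%. They were 66.4% and 52.4% in cordon-bleus, and 55.5% and 51.9% in forest weavers.

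A single transcript, XM_002193981, was female-biased in all 5 comparisons of the entopallium and is named for that reason, after its values had been seen. It was at 5.85 ± 0.13 in implanted males and 7.28 ± 0.10 in implanted females (SD, n = 6 each), a difference of -1.43 ± 0.07 (SE, limma adjusted p = 5.59e-08). The difference was -1.53 in non-breeding non-singing and -1.61 in breeding canaries, and -2.21 in cordon-bleus and -2.46 in forest weavers. In HVC of the implanted birds it was -1.45. The sexes therefore differed in the same direction in the entopallium of all 3 species, in canaries with and without an implant. Of HVC, only that of implanted canaries was compared here.

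Over all 26061 transcripts, the difference in implanted birds correlated weakly with that of breeding canaries (Pearson's r = 0.248, Spearman's rho = 0.201), non-breeding non-singing canaries (0.182 and 0.162), cordon-bleus (0.184 and 0.120) and forest weavers (0.116 and 0.0225). These correlations are across transcripts, which are not independent, and the comparisons share the array and its probes but no birds.

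Whether the sex difference of implanted birds differed from that of non-breeding non-singing birds was tested with the interaction of sex and implant. It was called for 1509 transcripts (5.79%), positive for 704 (2.7%), where males minus females was higher in implanted birds, and negative for 805 (3.09%). The order of the directions depended on the scaling, with 770 positive and 724 negative interactions after scaling by total intensity, and 770 positive and 670 negative ones under quantile normalisation. The interaction passed for 382 of the 760 male-biased transcripts, in the positive direction, and for 494 of the 878 female-biased transcripts, in the negative direction. It uses the same 12 arrays that chose these transcripts, and the counts are given as a description. The remaining 378 male-biased and 384 female-biased transcripts did not pass, which does not show that their sex difference was the same in both states. The 1st percentile of the arrays, a measure of their low end, was 2.63 to 2.82 in implanted and 2.80 to 3.01 in non-breeding non-singing birds, and its part in the interaction was not tested.

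Implanted and non-breeding non-singing birds were also compared within each sex. Implant and song cannot be told apart there, and the part of the tissue profile of implanted females was not tested. In females, 791 transcripts were higher (3.04%) and 766 were lower (2.94%) in implanted than in non-breeding non-singing birds. In males 113 were higher (0.434%) and 262 lower (1.01%). Among the 760 male-biased transcripts, the median change with the implant was 0.09 in males and -0.44 in females, and 47 were called higher in males and 320 lower in females. Among the 878 female-biased transcripts it was -0.09 in males and 0.52 in females, and 63 were called lower in males and 447 higher in females. Without females 2 and 6, 275 of the male-biased transcripts were called lower and 354 of the female-biased ones higher in females. Among all 26061 transcripts, 678 were then called lower and 673 higher in females. Since these transcripts were chosen on the implanted birds, these values are a description.

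A like pattern was found against all 5 groups of canaries without an implant. The mean of implanted females was below all 5 for 532 of the 760 male-biased transcripts (70.0%), and that of implanted males was above all 5 for 320 (42.1%). For the 878 female-biased transcripts, implanted females were above all 5 groups for 734 (83.6%) and implanted males below all 5 for 377 (42.9%). Without females 2 and 6, the mean of the females was below all 5 groups for 481 of the male-biased and above them for 668 of the female-biased transcripts. Among all 26061 transcripts it was then below them for 6501 and above them for 4170. Over all transcripts and with all birds, implanted females were below the 5 groups for 26.0% and above them for 17.0%. Implanted males were above for 12.0% and below for 19.7%. The 1st percentile of the arrays was 2.63 to 2.82 in implanted birds and 2.80 to 3.43 in the 5 groups. Its part in these counts was not tested.

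Single birds followed their group. As the median over the 760 male-biased transcripts, levels relative to the mean of the 7 groups were 0.25 to 0.28 in the implanted males and -0.46 to -0.29 in the implanted females. For the 878 female-biased transcripts they were -0.30 to -0.15 in implanted males and 0.27 to 0.59 in implanted females. No bird of another group was as low as an implanted female in the male-biased transcripts or as high in the female-biased transcripts, where the birds without an implant reached 0.13. The transcripts were chosen on the implanted birds, so that their separation follows in part from the choice and is a description. Female 6 was the most extreme bird in both sets, and females 3 and 5 the least.

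**Figure D4:**
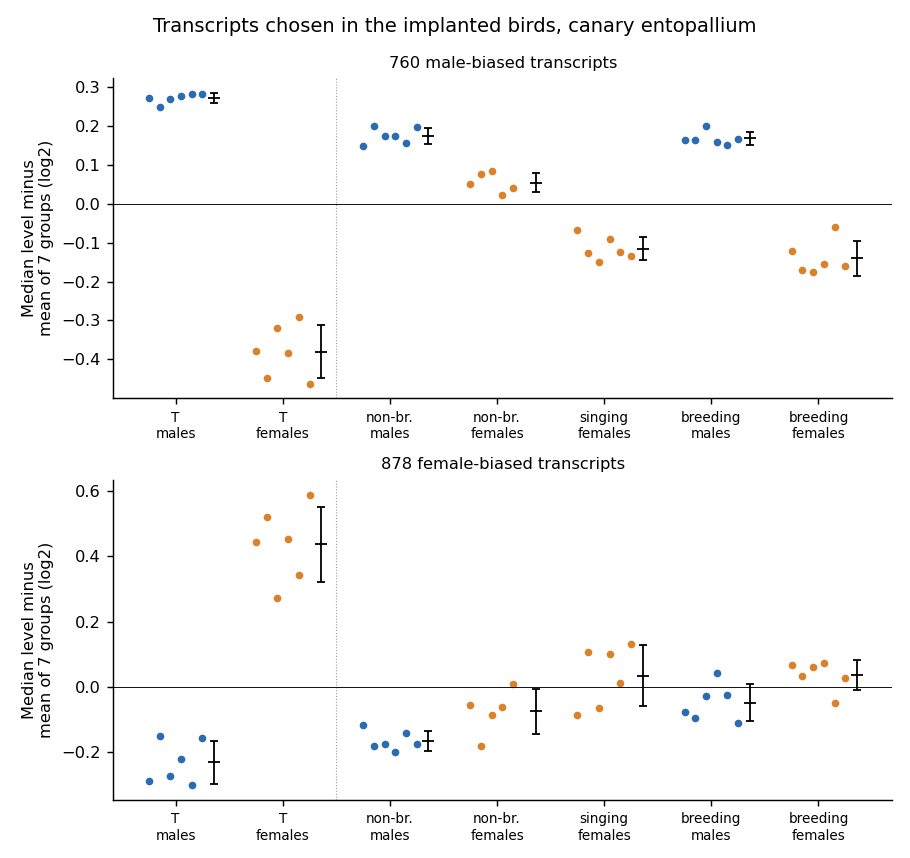
Median over the male-biased (top) and female-biased (bottom) transcripts of the level minus the mean of the 7 canary groups (log2), 1 point a bird, with males in blue, females in orange and the mean ± SD beside each group. T marks implanted birds, on which the transcripts were chosen. Implanted females lie at -0.46 to -0.29 in the top panel and at 0.27 to 0.59 in the bottom panel, apart from all other birds.

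Of the transcripts with the largest interactions of sex and implant, ENSTGUT00000001986 was again the leading negative one (-2.88 ± 0.53, SE, limma adjusted p = 0.000572). The others were transcripts of low level, and the implanted sexes overlapped in each. ENSTGUT00000016916 ranked at 0.817% of all transcripts by mean level and had 1.45 to 5.77 in implanted males and 1.73 to 3.12 in implanted females, against 1.24 to 2.46 in non-breeding non-singing males and 2.58 to 5.66 in non-breeding non-singing females. Its interaction was 2.50 ± 0.82 (SE, limma adjusted p = 0.0319), although its sex difference in implanted birds did not pass the test (0.64, limma adjusted p = 0.428). It was the non-breeding non-singing birds in which the sexes did not overlap and a female bias was called (-1.86, limma adjusted p = 0.0475). The interactions of XM_002198612 (2.46 ± 0.84, SE, limma adjusted p = 0.0382) and XM_002196113 (-2.58 ± 0.89, SE, limma adjusted p = 0.0419) were close to the threshold, and the calls of these 3 depended on single birds. When each of the 23 arrays was left out in turn, ENSTGUT00000016916 kept the call in 19 fits, XM_002198612 in 12 and XM_002196113 in 8.

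The sex difference of the entopallium was also compared with that of HVC in implanted birds, with the bird as a random block. HVC had 214 male-biased (0.821%) and 162 female-biased transcripts (0.622%). The median residual SD was 0.153 in HVC against 0.108 in the entopallium of implanted birds. The part of this spread in the counts was not tested. The interaction of sex and tissue was called for 1554 transcripts (5.96%), positive for 829 (3.18%), where males minus females was higher in the entopallium, and negative for 725 (2.78%). When arrays were scaled to the same total intensity, the numbers were 1013 and 577, and the share of positive calls was 63.7% in place of 53.3%. In HVC of implanted birds, the 59 transcripts lower in HVC by at least 2 had a median of 7.37 in males and 6.78 in females. The 63 higher ones had 9.24 and 9.46. The part of these levels in the interaction was not tested. The interaction passed in the direction of their sex difference for 335 of the 760 male-biased and 385 of the 878 female-biased transcripts of the entopallium. It uses the same entopallium arrays that chose these transcripts, and these counts are given as a description. The medians of these 760 transcripts were 0.62 in the entopallium, on which they were chosen, and 0.19 in HVC, and those of the 878 were -0.63 and -0.17. In HVC 83 of the 760 were called male-biased (10.9%) and 43 of the 878 female-biased (4.90%). These were 38.8% and 26.5% of the male-biased and female-biased calls of HVC. The male-biased direction in HVC was found for 70.8% of the 760, against 58% of all transcripts. The female-biased direction was found for 81% of the 878, against 42% of all. Over all transcripts, the sex differences of the tissues correlated (Pearson's r = 0.317, Spearman's rho = 0.281), with 11 birds in common.

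The leading interactions of sex and tissue were of different kinds. ENSMUST00000112399 had 7.395, 8.51 and 8.83 in the entopallium of implanted males (lowest, median and highest) and 10.11, 10.30 and 11.58 in that of implanted females, and the sexes did not overlap. Its level in HVC was 11.50 ± 0.17 in males and 11.53 ± 0.08 in females (SD, n = 6 each), so that the entopallium of females lay nearer to HVC. In the cerebellum of canaries without an implant, group means were 12.07 to 12.21, so that the high level was not particular to HVC. The interaction was -2.22 ± 0.30 (SE, limma adjusted p = 1.46e-05), and -1.84 without females 2 and 6 (limma adjusted p = 2.94e-05). Like XM_002197595, ENSMUST00000112399 was 2.49 higher in HVC of canaries without an implant. Both were also highest in implanted females 2 and 6 (here 11.58 and 11.19), so that they may not be independent examples. Called transcripts with a partner at a correlation over 0.95 across 107 arrays numbered 305.

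XM_002190762 was instead a transcript of the entopallium, 3.32 lower in HVC of canaries without an implant. In implanted birds it had 7.39, 8.62 and 9.03 in the entopallium of males and 9.25, 9.93 and 10.45 in that of females, again without overlap. Other canaries had means of 10.33 to 11.32 in the entopallium, so that both implanted groups were below them, and males more so. In HVC the order was the opposite, with 7.85 ± 0.43 in males and 7.10 ± 0.30 in females (SD, n = 6 each), a difference of 0.75 (limma adjusted p = 0.0293). The interaction was -2.11 ± 0.31 (SE, limma adjusted p = 4.17e-05), and -2.38 without females 2 and 6 (limma adjusted p = 3.11e-05).

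The positive interactions were led by transcripts of low level. XM_002198612 was at 5.83 ± 0.97 in males and 3.73 ± 1.36 in females in the entopallium, and at 4.97 ± 1.05 in males and 6.09 ± 0.31 in females in HVC (SD, n = 6 each). Its interaction was 3.26 ± 0.68 (SE, limma adjusted p = 0.00134). That of XM_002194733 was 3.15 ± 0.63 (SE, limma adjusted p = 0.000848). For both, the lowest mean of these 4 groups was that of the females of the entopallium, although single birds of the groups overlapped.

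**Figure D5:**
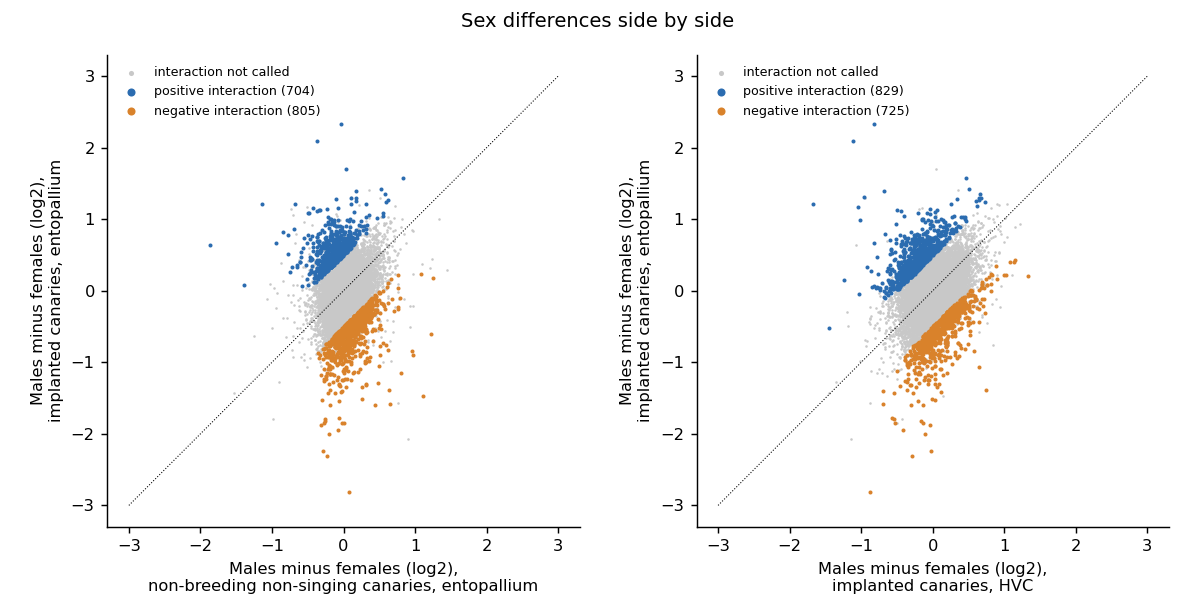
Males minus females (log2) of each transcript in the entopallium of implanted canaries (vertical axes) against the same difference in the entopallium of non-breeding non-singing canaries (left) and in HVC of implanted canaries (right). Called interactions are in colour, positive in blue (704 and 829) and negative in orange (805 and 725), and the dotted line marks equal differences. Called transcripts extend along the vertical more than along the horizontal axes.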

How the data were processed

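The authors deposited log2 levels of 26061 transcripts on 155 arrays of a custom Affymetrix exon array. The submitters' processing notes name Affymetrix Expression Console, and how the levels were normalised and summarised is not given in the sources used here. There were 0 missing values and 0 identical arrays among 385 pairs of the same group, and no further normalisation was applied. The authors' own test was run on single probes and could not be repeated from transcript levels. Precision is limited by the number of arrays.

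The members and lists were chosen with earlier results of these data known. Differences were tested in R 4.3.3 by lmFit and eBayes of limma 3.58.1, Benjamini-Hochberg adjusted over all transcripts, and calls required an adjusted p below 0.05 with an absolute log2 difference of at least 0.5. Within a group each array is of a separate bird per the labels, and some birds gave arrays of both tissues. Interactions of sex with implant and with tissue were fitted over 23 and 24 arrays, with the bird in the fit of tissue as a random block (consensus correlation 0.17). HVC minus entopallium was fitted over 59 arrays of canaries without an implant, with a term for each group of sex and state, a contrast chosen after seeing the data. With the bird as a random block, which 23 birds with both tissues allowed, all 1517 and 1584 transcripts were called again. Gene lists had been drawn up for named genes, but the identifiers matched 0 of 17915 reference genes and the lists were not used. For each contrast the 2 transcripts with the largest positive and the 2 with the largest negative difference among those called were named, for the sex difference only those without overlap of the sexes. The test was tried on simulated data. Alternatives were another scaling, quantile normalisation, removal of transcripts of low level, other options of limma, other call rules, a block for the replicate number, a single model over 7 canary groups and omission of each array. Replicate numbers of males and females did not pair the birds, since the correlation of their deviations was over 0.1 in 1 of 6 pairs.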

Additional observations from a re-analysis of the deposited data

Results flagged for a closer look

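The sex difference in the entopallium differed between implanted and non-breeding non-singing canaries for 1509 transcripts (5.79% of all), tested by the interaction of sex and implant. The named ones were ENSTGUT00000016916 (2.50), XM_002198612 (2.46), ENSTGUT00000001986 (-2.88) and XM_002196113 (-2.58). It differed between entopallium and HVC of implanted canaries for 1554 transcripts (5.96%), tested by the interaction of sex and tissue, and the named ones were XM_002198612 (3.26), XM_002194733 (3.15), ENSMUST00000112399 (-2.22) and XM_002190762 (-2.11).

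A single bird lay far from the others of its group in 3 of the 34 groups of values that were checked, where chance gives about 1 in 20. None of the 3 was an implanted bird. XM_002194733 was at 2.30 in 1 non-breeding non-singing female, below the other 4. ENSTGUT00000001986 was at 7.74 in 1 non-breeding non-singing male and at 8.44 in 1 non-breeding non-singing female, above the others of these groups.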

How the results depend on the processing

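Numbers of called transcripts stayed within 1.5 times their value under scaling to the same total intensity, quantile normalisation, removal of the lowest 25% of transcripts, array weights, the trend and robust options and the single model over 7 groups. The number called for the sex difference was 1638, and 1469 to 1786 when each array was left out in turn. It was 1509 for the interaction of sex and implant (1326 to 1650) and 1554 for that of sex and tissue (1413 to 1764). On the adjusted p alone, 10135 transcripts were called for the sex difference (5369 male-biased, 4766 female-biased), 5649 for sex and implant (2676 positive, 2973 negative) and 6242 for sex and tissue (3228 positive, 3014 negative). At a difference of at least 1 the numbers were 144 (48 and 96), 162 (67 and 95) and 130 (58 and 72). Among only the transcripts that were not called between HVC and entopallium, they were 1075 (540 and 535), 989 (467 and 522) and 1116 (649 and 467), where fewer transcripts were tested. Without implanted females 2 and 6 they were 1345, 1239 and 1342. These last 2 alternatives were chosen after seeing the data. Leaving out these females also moved the share of female-biased transcripts with the larger SD in females to 59.0%, against 76.4% with all birds. Fewer females than males then remained, so that these shares are not directly comparable.

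With a replicate block, the sex difference had 1637 called transcripts, the interaction with implant 1469 and that with tissue 1441, and without a block for the bird the interaction with tissue had 1430. Pairing by replicate number was not borne out, with 1 of 6 birds matching best its own number, and the block changed no call of the named sex differences. Scaling and quantile normalisation turned the order of positive and negative interactions of sex and implant (770 and 724, 770 and 670). The 4 named sex differences kept their direction and call in all alternatives that could be run. The interactions with implant of ENSTGUT00000016916, XM_002198612 and XM_002196113 lost the call in some, with values of 1.94 to 2.81, 2.05 to 2.84 and -3.05 to -2.23 and an adjusted p of up to 0.0681, 0.0677 and 0.0843 when each array was left out. XM_002196113 also lost it without implanted females 2 and 6 (-2.22, adjusted p = 0.118, limma). The causes were not tested. Levels near the low end of the arrays limit what can be said of weak transcripts.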
